A study of Mus musculus with 2 samples.

Results

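Serpins are a superfamily of proteins that share one fold, and 61 of the mouse genes that encode them are described here in the intestine at embryonic day 15.5 (E15.5). The members are the protein-coding genes whose symbol is Serpin followed by a clade letter from a to i, a number and at most 1 further letter. They are 61 of 43346 Ensembl gene entries, of which 21474 are protein-coding. Total RNA was sequenced in 2 libraries of strain B6NCrl, replicate 1 from a pool of 78 embryos and replicate 2 from a separate pool of 62 embryos, both of mixed sex and untreated as far as the labels say. The libraries form 1 group with no second tissue, age or genotype, so values were described and no test between conditions was possible. Each value averages over all cells of the dissected intestine and over many embryos. Libraries with 34406872 (replicate 1) and 40669822 (replicate 2) estimated counts were available, and values below are given for replicate 1 and replicate 2 in that order.

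An inhibitory serpin presents an exposed stretch, the reactive centre loop, to its target protease, which cuts the loop and is then trapped as the loop inserts into the body of the protein. The part of the loop that inserts first, the hinge, is rich in small residues such as alanine in inhibitory members. Other members have lost inhibition and carry hormones or act as chaperones. In the mouse, clades a and b expanded into clusters of related genes, some of them near-identical and many with their own loop. In adult animals the clade a genes are known mainly from the liver, which secretes their products into plasma.

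The loop is shown first for the 5 Serpina1 genes that were detected, because these near-identical genes differ more there than over the pooled rest of their coding sequence. Each of the following stretches covers 81 bases of coding sequence in the last exon on the minus strand of chromosome 12, from the GENCODE M21 transcripts (assembly GRCm38), and capitals mark the bases that vary among the 5 genes.
Serpina1a (chr12:103853750-103853830): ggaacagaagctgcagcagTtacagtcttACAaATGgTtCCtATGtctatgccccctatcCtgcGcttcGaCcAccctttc
Serpina1b (chr12:103728317-103728397): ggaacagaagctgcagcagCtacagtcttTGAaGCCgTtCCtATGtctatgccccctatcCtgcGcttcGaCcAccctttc
Serpina1c (chr12:103895087-103895167): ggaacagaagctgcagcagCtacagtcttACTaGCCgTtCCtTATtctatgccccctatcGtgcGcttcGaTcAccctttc
Serpina1d (chr12:103763755-103763835): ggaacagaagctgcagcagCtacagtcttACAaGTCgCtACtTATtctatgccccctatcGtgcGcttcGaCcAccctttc
Serpina1e (chr12:103947093-103947173): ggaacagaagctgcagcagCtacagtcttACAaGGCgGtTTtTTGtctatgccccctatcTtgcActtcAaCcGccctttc
Of the 81 loop bases 18 vary (22.2%), against 68 of 1158 bases (5.87%) in the rest of the coding sequence. Pairs of these genes are 96.3 to 98.5% identical over the coding sequence, and a pair differs at 5 to 12 loop bases.

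The hinge is shown for members of different clades, because this is the stretch in which inhibitory members and members known as carriers are said to differ. Each stretch holds 8 codons aligned to the Serpina1b loop, with GCN codons, which encode alanine, in capitals.
Serpina1b (chr12:103728374-103728397, minus strand): ggaacagaaGCTGCAGCAGCTaca
Serpinb1a (chr13:32842947-32842970, minus strand): ggaacagagGCAGCCGCTGCTaca
Serpinb6a (chr13:33918170-33918193, minus strand): ggcacagagGCTGCAGCTGCTaca
Serping1 (chr2:84765697-84765720, minus strand): ggggtggaaGCAGCTGCAGCCtct
Serpine2 (chr1:79799469-79799492, minus strand): ggaaccaaaGCTtcgGCAGCAaca
Serpini2 (chr3:75249172-75249195, minus strand): ggaagcgaaGCTGCAGCAtccaca
Serpina6 (chr12:103646975-103646998, minus strand): gggaatgtgctgcctGCTGCCacc
Serpinf1 (chr11:75410266-75410289, minus strand): gggGCAggaagcagccccagccca
A hinge without a gap was aligned in 57 of the 61 members; Serpinh1, Serpina7, Serpina16 and Serpinb5 had a gap there. Of the 57, 29 held at least 4 GCN codons among the 8, and among the 20 detected members with an aligned hinge 12 did. Of these 20, Serpina10 and Serpinf1 had 1 GCN codon and Serpina6 had 2. Serpinf1 encodes the pigment epithelium-derived factor and Serpina6 the corticosteroid-binding globulin, both known as proteins that do not inhibit proteases. Serpina10, by contrast, encodes the protein Z-dependent inhibitor of factor X, so few GCN codons did not mark non-inhibitors alone.

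Expression is given as TPM, a level per transcript length with the same total in each library, so that TPM can be compared between genes. Detection required 1 TPM or more in each of the libraries. By this rule 21 of the 61 members were detected (34.4%), while 62.7% of all protein-coding genes were. The family summed to 1543 TPM in replicate 1 and 1518 TPM in replicate 2 (1530.5 ± 17.8, SD, n = 2), which is 0.154% and 0.152% of each library's TPM. The detected members had a median of 26.5 and 25.2 TPM, against 17.7 and 17.8 TPM over all detected protein-coding genes. A smaller share of Serpin genes than of genes at large thus passed the limit, while 14 members reached 10 TPM and 3 reached 100 TPM in both libraries. A further member, Serpinb8, reached the limit in replicate 1 alone, and 39 members stayed below it in both.

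**Figure D1:**
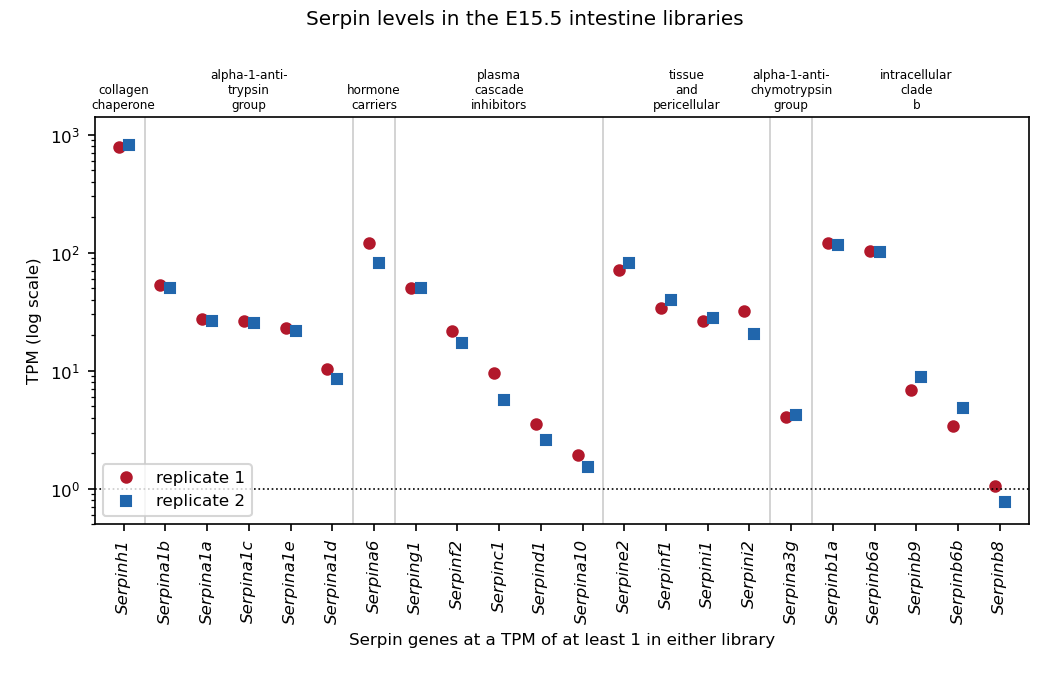
TPM on a log scale of the 22 Serpin genes that reached a TPM of 1 in either library, grouped by role, with a circle for replicate 1, a square for replicate 2 and a dotted line at 1 TPM. Serpinh1 stands above all others at 789 and 822 TPM, and the remaining members spread from 122 TPM down to 0.77 TPM.

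The highest member by far was Serpinh1 (ENSMUSG00000070436, chromosome 7, 99345376 to 99353239, minus strand), which encodes HSP47, the chaperone of the endoplasmic reticulum that binds folded procollagen. Serpinh1 had 789 TPM in replicate 1 and 822 TPM in replicate 2, and ranked 149 among all protein-coding genes by mean TPM. It made up 51.2% and 54.2% of the family's TPM, so the 60 other members together held 754 and 695 TPM. The last 10 codons of its transcript Serpinh1-201 show the feature that sets this member apart from secreted serpins. In the stretch below, read on the minus strand of GRCm38 in exon 5 of 5, capitals mark the last 4 of 417 coding codons, which encode the signal that retrieves the protein to the endoplasmic reticulum.
Serpinh1-201 (chr7:99346123-99346152): cccaagggagacaagatgCGAGATGAGTTG

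Its clients and fellow folding factors were also expressed. All 11 collagen chain genes listed were detected, with 3389.6 TPM in replicate 1 and 3726 TPM in replicate 2 in sum. Col3a1 led them at 1317 and 1483 TPM, followed by Col1a1 at 818 and 911 TPM and Col1a2 at 395 and 444 TPM. All 13 genes for collagen folding and modification were detected, with 2019 and 1905 TPM in sum. Among these, P4hb, a subunit of prolyl 4-hydroxylase, had 932 and 841 TPM, Ppib, a prolyl isomerase, 551 and 496 TPM, and Crtap, a part of the prolyl 3-hydroxylation complex, 89.2 and 92.5 TPM. Serpinh1 therefore stood at a level per length close to that of Col1a1 and P4hb. Replicate 1 over replicate 2 gave a fold of 0.96 for Serpinh1, 0.91 for the summed collagen chains and 1.06 for the summed folding genes. Mesenchyme markers, of which 8 of 8 were detected, summed to 1499 and 1721 TPM, and all 8, among them Col1a2, were lower in replicate 1.

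The alpha-1-antitrypsin group is named after a plasma inhibitor of neutrophil elastase. Its copies differ in the loop, and which proteases each mouse copy inhibits was not tested. Serpina1b led with 52.7 TPM in replicate 1 and 50.2 TPM in replicate 2. Serpina1a had 27.5 and 26.2 TPM, Serpina1c 26.5 and 25.2 TPM, and Serpina1e 23.1 and 21.6 TPM. These 3 stood close together below Serpina1b, in the same order in both libraries. The gap between Serpina1a and Serpina1c was too small to resolve their order, given the splitting of shared reads described below. Serpina1d was the lowest of the 5 at 10.3 and 8.45 TPM. Serpina1f, the sixth gene of the group by name, had 0.06 and 0.03 TPM, from 2 counts in each library.

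How the 5 Serpina1 levels divide depends on reads that the quantifier had to split between copies. Of the 31-base words in the annotated transcripts of a gene, 85.8% for Serpina1c also occurred in another gene, as did 65.2% for Serpina1a, 64.7% for Serpina1d, 54.2% for Serpina1e and 44.7% for Serpina1b. The closest relative of Serpina1c was Serpina1a, which held 77.5% of its words. The annotated body of Serpina1b also contains the pseudogene Gm8893, named here after its values were seen, which had 3.08 and 2.89 TPM and held 53.0% of the words of Serpina1c. The sum over the 5 genes does not depend on the split among them: it was 140.03 TPM in replicate 1 and 131.6 TPM in replicate 2. The same sum from the posterior mean estimate (pme_TPM) was 137.2 and 129.3. The level of each single copy depends on that split, for which the deposited values give a posterior SD of the count. In replicate 1 this SD was 23.6 for Serpina1c, 23.8 for Serpina1a, 10.14 for Serpina1d, 10.69 for Serpina1e and 17.27 for Serpina1b. The expected counts were 800.38, 829.76, 319.66, 761.59 and 1654.34 in that order, so the SD was small beside the counts. The SD was not small beside the gap between Serpina1a and Serpina1c, so their order was not resolved. In replicate 2 it lay between 9.92 and 26.96.

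Serpina6, the plasma carrier of glucocorticoids, was the highest clade a gene, with 122 TPM in replicate 1 and 81.1 TPM in replicate 2. Serpina7, the thyroxine-binding globulin on the X chromosome, had 0.11 and 0.04 TPM. Serpina6 shared no 31-base word with another gene, and its log2 difference of 0.58 between the libraries went with a ratio of counts per gene count of 1.53 (95% exact interval 1.461 to 1.599). All such intervals cover counting error only.

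Inhibitors of the plasma cascades were detected in 5 of 6 cases. Serping1, the C1 inhibitor of complement and of the kallikrein system, had 50.2 TPM in replicate 1 and 49.96 TPM in replicate 2. Serpinf2, the plasmin inhibitor alpha-2-antiplasmin, had 21.9 and 17.1 TPM. Serpinc1, antithrombin, had 9.63 and 5.66 TPM. Serping1 was the highest of these 3, and of the 22 members at 1 TPM or more in either library it was the one whose libraries lay closest together. Serpind1, heparin cofactor II, had 3.53 and 2.58 TPM. Serpina10, the protein Z-dependent inhibitor of factor X, had 1.92 and 1.54 TPM. Serpina5, the protein C inhibitor, had 0.02 and 0 TPM, from 1 and 0 counts. Of 13 matched genes for coagulation, kallikrein and complement proteases 9 were detected, with 102.6 and 85.1 TPM in sum. The complement factor Cfb led at 53.1 and 44.3 TPM, C2 had 13.4 and 12.5 TPM, and the coagulation factor F10 had 13.3 and 9.50 TPM.

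Serpina6 and the detected cascade inhibitors other than Serping1 were higher in replicate 1 by 1.25-fold to 1.70-fold. Markers of hepatocytes moved the same way: all 13 of 13 were detected, none was at 0, and their sum was 817 TPM in replicate 1 and 568 TPM in replicate 2. Each of the 13 was higher in replicate 1, by 1.28-fold to 1.97-fold, with Trf at 236 and 160 TPM, Afp at 190.02 and 143 TPM and Apoa2 at 102 and 70.8 TPM. The Serpina1 sum was higher in replicate 1 by 1.06-fold. Whether liver tissue or gut cells gave these values was not tested, and in bulk RNA fewer cells of a type and less RNA per cell cannot be told apart.

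Serpinc1 carries a further limit. Its TPM ratio of 1.70 exceeded the ratio of its counts, 1.21 (95% exact interval 1.05 to 1.39), and the estimated effective length of the gene, by which counts are divided, was 1713 bases in replicate 1 and 2453 bases in replicate 2. Its transcripts, looked at after these values were seen, took different shares: Serpinc1-205, with 1044 bases, had 44.2% and 22.3% of the gene's TPM, and Serpinc1-201, with 4970 bases, had 21.2% and 39.5%. Of the words of Serpinc1-201, 58.9% lie in Zbtb37, also named after its values were seen, a gene on the opposite strand that overlaps it over 2942 bases and had 4.86 and 6.79 TPM. No source used here gives the strand setting of the counting, so reads of the 2 genes cannot be told apart in that stretch.

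Members that act in tissues and at cell surfaces were detected in 4 of 6 cases. Serpine2, protease nexin-1, which inhibits thrombin, urokinase and plasmin, had 70.8 TPM in replicate 1 and 81.0 TPM in replicate 2. Serpinf1 had 34.0 and 39.9 TPM. Serpini1, neuroserpin, an inhibitor of tissue plasminogen activator known from neurons, had 26.2 and 28.1 TPM. These 3 were each somewhat lower in replicate 1, at folds of 0.87, 0.85 and 0.93. Serpine3 had 0.06 and 0.19 TPM, from 2 and 7 counts. All 9 genes listed for plasminogen activation were detected, with 1254 and 1241 TPM in sum. They were led by S100a10 at 532 and 578 TPM and Anxa2 at 443 and 387 TPM, which together form a plasminogen-binding complex, and by Plgrkt, a plasminogen receptor, at 152 and 168 TPM. These 3 made up most of the sum. Urokinase itself, Plau, and its receptor Plaur, both named after their values were seen, stood at 2.40 and 2.12 TPM and at 8.01 and 7.29 TPM. Neuron and glia markers were detected in 10 of 10 cases and summed to 289.6 and 313 TPM, a fold of 0.92.

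Serpini2, a member known in the mouse from pancreatic acinar cells, had 32.2 TPM in replicate 1 and 20.3 TPM in replicate 2. Its fold of 1.59 stood beside a count ratio of 1.62 (95% exact interval 1.47 to 1.78), and it shared no 31-base word with another gene. Genes of pancreatic digestive proteases were detected in 10 of 12 cases, with none at 0, and summed to 5241 TPM in replicate 1 and 1901 TPM in replicate 2. Of the 11 that reached a TPM of 1 in either library, 10 were over 2-fold higher in replicate 1, and Ctrb1 led them with 2585 and 949.8 TPM. Other exocrine pancreas genes were detected in 7 of 9 cases, none was at 0, and they summed to 7361 and 2741 TPM. Clps among them had 2798 and 909.95 TPM. The pancreas lists thus differed by 2.76-fold and 2.69-fold, more than Serpini2 did, and their part in the Serpini2 value was not tested.

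**Figure D2:**
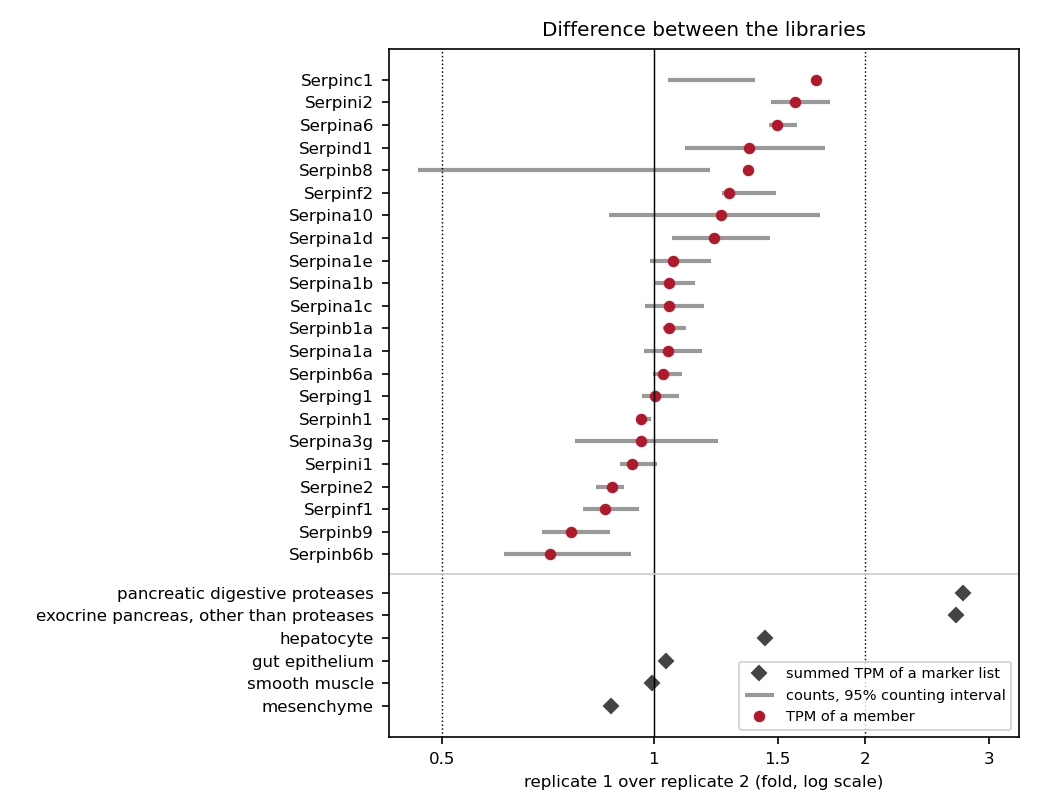
Replicate 1 over replicate 2 on a log axis for the 22 members (circles, TPM, with bars for the 95% exact counting interval of the count ratio) and for the summed TPM of 6 marker lists (diamonds). All members lie between 0.71 and 1.70, inside the dotted lines at 0.5 and 2, while both pancreas lists lie beyond 2.

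Clade b members lack a signal peptide in most cases and act inside cells. Of 26 genes, 4 were detected, and 13 had no count in either library. Serpinb1a, an inhibitor of neutrophil serine proteases such as elastase, had 121 TPM in replicate 1 and 115 TPM in replicate 2. Serpinb6a, which in the mouse inhibits cathepsin G and related proteases, had 103 and 100.3 TPM. These 2 genes held nearly all of the clade b sum of 236 and 231 TPM. Serpinb9, the inhibitor of granzyme B, had 6.81 and 8.92 TPM, and Serpinb6b, of the Serpinb6 group, had 3.42 and 4.80 TPM. Serpinb8 had 1.05 and 0.77 TPM, from 31 and 49 counts, so that its TPM was higher in replicate 1 while its counts per gene count were lower there (ratio 0.75, 95% exact interval 0.46 to 1.20). Its transcripts were looked at for that reason, and Serpinb8-203, with 373 bases, had 53.5% of the gene's TPM in replicate 1 and 0% in replicate 2. These shares came from 3.71 and 0 estimated counts, which gave 0.56 of the 1.05 TPM in replicate 1. That Serpinb8 reached 1 TPM there thus rests on few counts.

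Protease genes from 3 lists were read beside the clade b members, and which of these proteases they meet was not tested. Of 16 leukocyte and mast cell granule proteases 6 were detected, with 18.7 and 16.9 TPM in sum. Cpa3 led them at 3.25 and 4.09 TPM, and Gzmk and Gzmc were at 0 in both libraries. Of 8 epithelial membrane serine proteases 6 were detected, with 240.3 and 197 TPM in sum, led by St14, matriptase, at 66.8 and 60.7 TPM. All 10 lysosomal cysteine cathepsins and legumain were detected, with 853 and 806 TPM in sum, led by Ctsz at 248 and 207 TPM. Serpinb1a and Serpinb6a were thus each higher than the granule protease list as a whole.

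Markers of other cell types that could hold clade b transcripts were read beside them. All 10 gut epithelium markers were detected (4499 and 4319 TPM in sum), as were 8 of 8 macrophage markers (307 and 286 TPM), 6 of 6 neutrophil markers (98.6 and 59.6 TPM) and 5 of 5 megakaryocyte and platelet markers (50.6 and 51.8 TPM). Neutrophil markers were higher in replicate 1 by 1.65-fold, while Serpinb1a was higher by 1.05-fold. Smooth muscle (3861 and 3877 TPM), endothelium (295 and 294 TPM) and mesothelium (203 and 206 TPM) were detected in full, at folds of 0.996, 1.01 and 0.983 between the libraries. Squamous and urothelial markers were detected in 4 of 9 cases (64.6 and 66.2 TPM), and adrenal and gonad markers in 3 of 7 (69.0 and 44.5 TPM). Members of the last list moved apart: Sox9 had 29.1 and 34.5 TPM, while the steroidogenic genes Cyp11a1 and Hsd3b1 had 18.4 and 7.83 TPM and 12.9 and 1.10 TPM, folds of 2.34 and 11.7. Of its 4 genes at 1 TPM or more in either library, 3 were over 2-fold apart. In which of these cells the Serpin transcripts lay was not tested.

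Detected members were unevenly spread over the clusters. The clade a cluster on chromosome 12 holds 23 of the 24 clade a members and 8 of the 8 detected ones, with 269 TPM in replicate 1 and 219 TPM in replicate 2 in sum. The cluster runs from position 103614786 to 104414329. The 7 detected members other than Serpina3g lie within its first 344189 bases, a stretch defined by the end of the last of them, Serpina1e. Serpina16 and Serpina1f, which were not detected, lie in the same stretch. Of clade b, the 11 genes on chromosome 1 summed to 1.31 and 1.28 TPM with none detected, while the 15 genes on chromosome 13 summed to 235 and 229.8 TPM with 4 detected. The chromosome 1 genes include Serpinb5, which encodes maspin, at 0.07 and 0.11 TPM, Serpinb2, which encodes PAI-2, at 0 and 0.06 TPM, and the 4 Serpinb3 genes, which had no count.

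**Figure D3:**
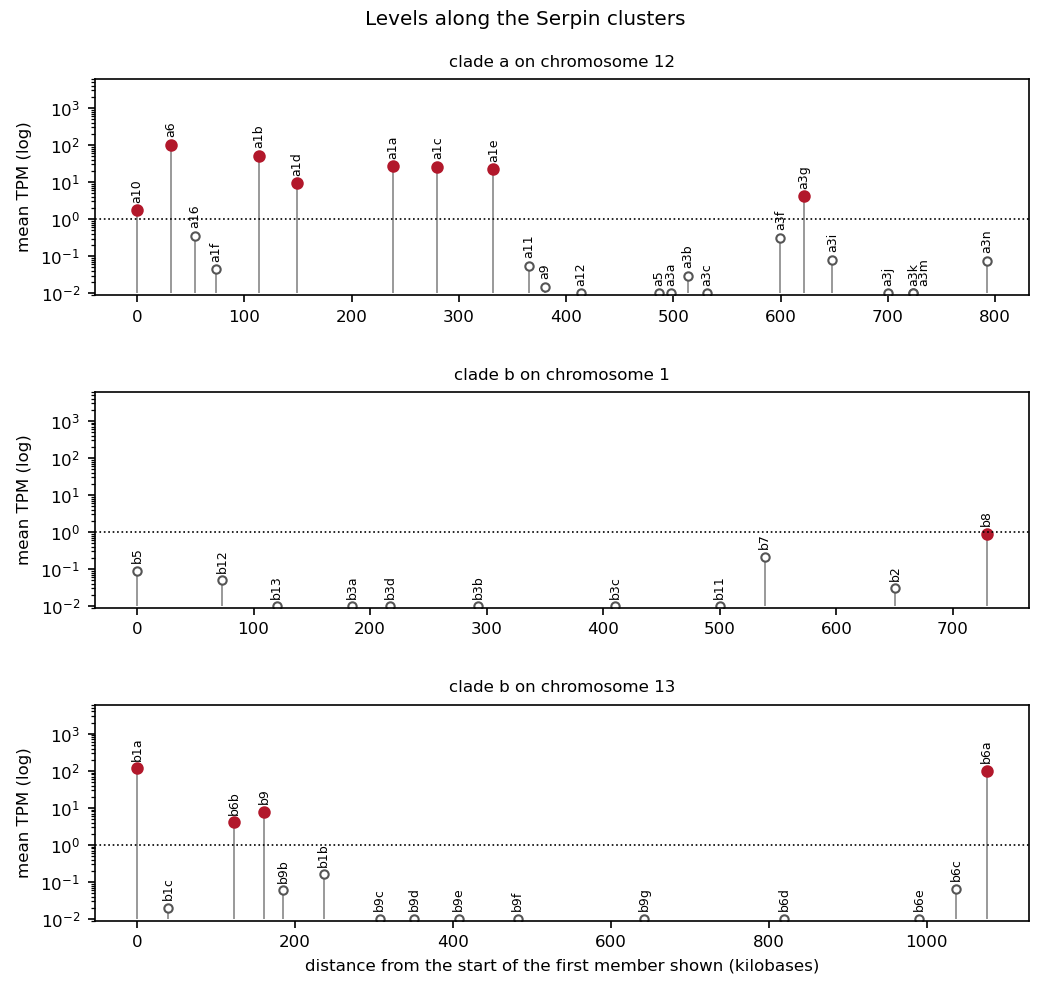
Mean TPM of both libraries on a log scale against the distance in kilobases from the start of the first member shown, for clade a on chromosome 12 and clade b on chromosomes 1 and 13, with filled points for members at a TPM of at least 1 in either library and means under 0.01 drawn at 0.01. The chromosome 1 cluster has 1 filled point, Serpinb8, against 4 on chromosome 13 and 8 on chromosome 12.

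The alpha-1-antichymotrypsin group has 10 members in the mouse, of which Serpina3g, known there as an inhibitor of cysteine cathepsins in immune cells, was detected alone. Serpina3g had 4.04 TPM in replicate 1 and 4.21 TPM in replicate 2, and 28.4% of its words occurred in other genes. The other 9 lay between 0 and 0.37 TPM, the highest being Serpina3f at 0.26 and 0.37 TPM, which is also the closest relative of Serpina3g by shared words (16.2%). Serpina3a, Serpina3c and Serpina3k had no count.

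Below the limit of 1 TPM in both libraries lay 39 members, which together summed to 1.80 and 2.30 TPM. The highest TPM among them was 0.46, for Serpina16, and the highest count was 22.17, for Serpina3f. Of the 39, 16 had no count in either library. For those 16 a count of 0 allows up to 3 counts by the sampling of reads alone. At their lengths that is 0.0592 to 0.149 TPM in replicate 1 and 0.0509 to 0.128 TPM in replicate 2. The splitting of shared reads is not covered by this limit. Among the 16, 87.3% of the words of Serpinb9f and 67.9% of those of Serpinb9g occurred in other genes. Serpina9, Serpina11, Serpina12 and Serpina16 of clade a, outside the groups above, had 0 to 0.46 TPM.

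The tables hold TPM and its posterior mean, pme_TPM. Both were compared as (pme_TPM + 0.1) over (TPM + 0.1). Among the 42 members of the Serpina1, Serpina3 and Serpinb groups, 7 differed over 1.5-fold in both libraries, while 9.26% of all protein-coding genes did. They were Serpina3a, Serpinb11, Serpinb1c, Serpinb2, Serpinb5, Serpinb6e and Serpinb9c. Over all 61 members Serpina7 and Serpina11 joined them, and pme_TPM was the higher estimate in all 9. None of the 9 reached a TPM of 1, and their highest pme_TPM was 0.36. In the 22 members that reached a TPM of 1 in either library the ratio lay between 0.976 and 1.29. The 9 members had at most 6 counts in a library. All had more than 1 transcript: 9 of 41 such members differed, against 0 of the 20 with 1 transcript. Without a count, members with 1 transcript had a pme_TPM of at most 0.04. With the added 0.1 their ratio was then at most 1.4, so no conclusion is drawn from this contrast. The same shares over all protein-coding genes were not computed.

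Group sums moved little between the estimates where a member was well expressed. The Serpinb1 group had 121 TPM in replicate 1 and 116 TPM in replicate 2, and 119 and 113 as pme_TPM. The Serpinb6 group had 107 and 105 TPM, and 107 and 105 as pme_TPM. The Serpinb9 group had 6.81 and 9.04 TPM, and 6.95 and 9.12 as pme_TPM. The Serpina3 group was higher as pme_TPM, with 5.15 and 5.28 against 4.53 and 4.76 TPM. The Serpinb3 group had 0.17 and 0.15 as pme_TPM against 0 and 0 TPM. Copies also differed in how far words were shared: 10.2% of the words of Serpinb1a occurred in other genes and 4.94% of those of Serpinb9, but 87.3% of those of Serpinb9f, which had no count. For Serpinb6a the figure was 29.0%, the largest share with Nqo2 (13.1%), an overlapping gene on the opposite strand that was likewise named after its values were seen.

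**Figure D4:**
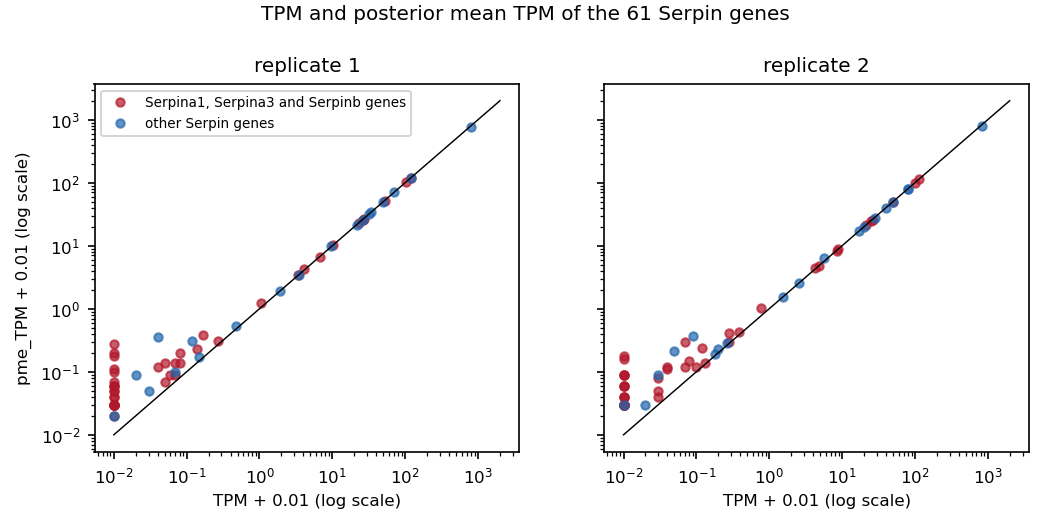
The posterior mean pme_TPM against TPM for the 61 Serpin genes in replicate 1 and replicate 2, both on log axes after adding 0.01, with members of the Serpina1, Serpina3 and Serpinb groups and other members in separate colours and a line of equality. Points at a TPM of 1 or more lie on or close to the line, and points under 0.1 TPM rise above it, to at most 0.36.

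Most of the 12 members with the highest mean TPM drew on 1 transcript. The leading transcript held at least 94.5% in both libraries in Serpinh1, Serpinb1a, Serpina6, Serpina1a, Serpina1b, Serpina1c, Serping1 and Serpini2, and Serpine2-201 held 91.8% in replicate 1 and 96.0% in replicate 2. For Serpina1c and Serpini2 the share was fixed at 100%, because each has only 1 transcript in the deposited values. Serpini1-201, with 4091 bases, held 73.0% and 72.6% of its gene's TPM, and the 779-base Serpini1-203 held 25.6% and 26.5%. Serpinb6a was divided among 3 transcripts of similar length: Serpinb6a-202 held 49.2% and 37.6%, Serpinb6a-203 29.8% and 37.3%, and Serpinb6a-201 10.7% and 16.3%. In Serpinf1 the first place went to Serpinf1-208, annotated as a target of nonsense-mediated decay, with 33.1% and 40.4%, ahead of the full-length Serpinf1-201 with 25.7% and 23.1%. Short transcripts of Serpinf1 moved between the libraries: Serpinf1-202 held 22.0% and 7.55%, and Serpinf1-203 7.19% and 18.5%.

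**Figure D5:**
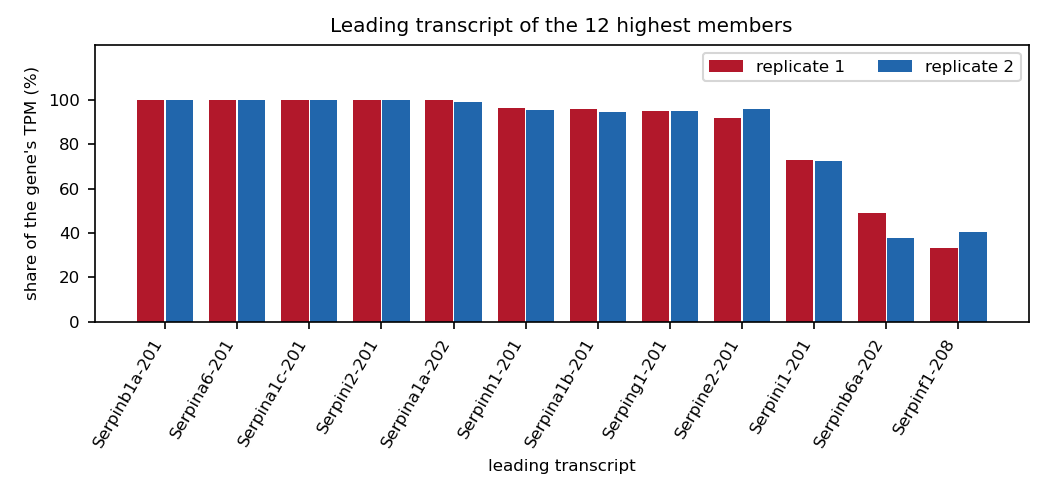
Share of the gene's TPM, in percent, held by the leading transcript of the 12 members of highest mean TPM, with a bar for replicate 1 and a bar for replicate 2. The share is above 90% in 9 genes and below 50% in Serpinb6a and Serpinf1. Serpina1c and Serpini2, among the 9, have only 1 transcript each, which fixes their share at 100%.

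The libraries were compared member by member. Of the 22 members that reached a TPM of 1 in either library, 0 were over 2-fold apart on the log2(TPM + 1) scale, where 0.606% of the 13859 protein-coding genes under the same limit were, 0.491% higher and 0.115% lower in replicate 1. A count of 0 among 22 is near that background and sets the family apart in nothing. The largest differences were log2 0.67 for Serpinc1 and log2 0.64 for Serpini2, both higher in replicate 1. On counts scaled with edgeR or DESeq2 factors Serpinc1 stood at log2 0.26, below Serpini2 at 0.67 and Serpina6 at 0.59. In the other direction Serpinb6b stood at log2 -0.39 and Serpinb9 at log2 -0.35. Of the 22 members, 15 were higher in replicate 1 and 7 were lower, against 6098 higher and 7716 lower among the 13859 genes. The 21 detected members had a median log2 ratio of 0.07, and all detected protein-coding genes one of -0.02. Over 19732 genes the counts of the libraries differed by more than sampling noise, with a chi-square of 18.3 per degree of freedom. The pools are separate by their labels, and no technical replicate was available to set beside this value.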

How the data were processed

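Total RNA from 2 pools of E15.5 intestine was sequenced with ERCC spike-ins, which took 2.16% and 1.76% of counts. Per the deposited readme, the assembly was mm10 and the annotation GENCODE M4; no source used here names the quantifier, strand setting or read length. Per the file headers, the authors deposited expected counts, TPM, FPKM and a posterior mean TPM per gene, and the percent of a gene's output on each transcript. The deposited credibility bounds, a score without a stated level, were not interpreted. Symbols and positions came from GENCODE M21 (GRCm38) by Ensembl identifier without version (42462 of 43346 entries, 98.0%). Coding sequences came from the same release.

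Members and gene lists were chosen with earlier results of these data known. Every member at a TPM of at least 1 in either library is named, and members below by group. Members of the Serpina1, Serpina3 and Serpinb groups are named where estimates are compared, and from each list at most the 3 highest members. Transcripts are described for the 12 highest members. Values of some members are not reported here. Other genes named are marked as chosen after their values were seen. Ratios are replicate 1 over replicate 2 of TPM, with log2(TPM + 1) where log2 is written, which understates the change of low genes. Count ratios used expected counts rounded to whole numbers, divided by gene counts (33665128 and 39953610), with exact binomial 95% intervals. Words of 31 bases were compared on both strands with all other M21 transcripts. Hinges were aligned by codon translation with Biopython 1.88. Scaling alternatives used edgeR 4.0.16 and DESeq2 1.42.0 in R 4.3.3, for size factors only. The interval code was tested on simulated data. The labels give the pools as biological replicates of different embryo numbers; biological and technical spread between them cannot be told apart.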

Additional observations from a re-analysis of the deposited data

How the results depend on the processing

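Limits: with 2 libraries of 1 group there was no test, and a count of 0 sets an upper limit only. The number of detected members, 21, ranged from 17 to 22 over a TPM limit of 0.5 or 5, pme_TPM, FPKM, a minimum of 10 counts and either library alone. The family's sum of 1530.5 TPM became 1505.6 with pme_TPM, 1058 as FPKM and 1597 when TPM was rescaled to Ensembl genes alone, and stood at 1518 and 1543 with 1 library left out. Members over 2-fold apart stayed at 0 under each alternative except a 1.5-fold limit, which gave 2, Serpinc1 and Serpini2. Leaving out the filter on low values could not change this number. On the log2(TPM + 1) scale the members below the limit, at 0.46 TPM or less, cannot differ over 2-fold. Of the 42 members of the Serpina1, Serpina3 and Serpinb groups, 7 had estimates over 1.5-fold apart. Over 2-fold it was 3, with a TPM of at least 1 it was 0, and with 1 library left out 9 to 10. Counting 3 members at exactly 1.5-fold in a library, an alternative chosen after seeing the data, gave 10. Serpinb8 changed sign, from log2 0.21 to -0.42 with edgeR or DESeq2 factors on counts; its count of 31 and 49 limits it. The other 21 log2 ratios kept their sign, but that of Serpinc1 moved to 0.26 with these factors, against 0.67 as TPM. Mean TPM of named members moved beyond its spread in 20 of 22 as FPKM, 8 of 22 over Ensembl genes alone and 3 of 22 as pme_TPM, and leading transcript shares in 5 of 12 as posterior means. No paired analysis was possible because the libraries form 1 group.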

Other observations

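Entries with a Serpin symbol that are not annotated as protein-coding were left out of the family and are given here as values. Serpinb10, annotated as a polymorphic pseudogene on chromosome 1, had 0.10 TPM in replicate 1 and 0 TPM in replicate 2, from 4 and 0 counts. Serpina3h, a transcribed pseudogene, had 0 and 0.03 TPM. The other 5 such entries, all unprocessed pseudogenes, had no count in either library.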
